A study of Mus musculus with 9 samples.

Results

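The glucocorticoid receptor gene Nr3c1, the cortisone-reactivating enzyme gene Hsd11b1 and 6 genes known to be switched on by glucocorticoids (Fkbp5, Tsc22d3, Zbtb16, Sgk1, Errfi1 and Ddit4) were followed in mouse lung after injurious ventilation. These 8 genes were taken by name from 27203 genes and assembled loci, and the FPKM values of all transcript rows of a gene (fragments counted per transcript length and per library total) were summed. Lungs came from male C57BL/6 mice of 6 to 8 weeks, 3 per group. VILI mice (ventilator-induced lung injury) were given 4 hours of ventilation with 20 ml/kg tidal breaths under ketamine and xylazine with pancuronium, and were killed at once (VILI 0 hours) or 6 hours later (VILI 6 hours). Control mice were intubated and not ventilated. The clock times of the procedures and of death, and how long control mice stayed anesthetized, are not given in the sources used here, so overdistension, anesthesia, muscle relaxation, handling and time of day cannot be told apart as differences between VILI and control. No steroid is named in the protocols, and plasma corticosterone was not analysed here.

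Glucocorticoids cross the cell membrane and bind the glucocorticoid receptor, a nuclear receptor that the Hsp90 chaperones hold ready in the cytoplasm. The bound receptor enters the nucleus and attaches to glucocorticoid response elements, short DNA palindromes, from which it raises the transcription of its targets. In lung it is known for dampening inflammation, for fetal lung maturation and for fluid clearance by the epithelium. Fkbp5, which lowers the receptor's hormone affinity, and Tsc22d3 (GILZ), an anti-inflammatory leucine zipper protein, are among its most used readouts.

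The study's samples were whole lung, in which more cells of a type and more RNA per cell cannot be told apart. Markers of lung cells were present in every library: the summed FPKM of 6 alveolar type 2 markers, led by Sftpc (surfactant protein C), ran from 12030 to 15040. Neutrophil markers, led by S100a9, a calcium-binding protein of neutrophils, summed to 54.4 to 66.5 FPKM in control lungs, to 579 to 1042 just after ventilation and to 497 to 2137 at 6 hours, and 10 and 11 of 12 had a higher level than control at an unadjusted P under 0.05, beside 6.81% and 8.17% of all genes. Column sums of the table ran from 366360 to 388459 FPKM, and read counts per library were not used here, so only the spread of the 3 lungs of a group shows how precise a level is. The library labelled VILI 6 hours replicate 1 stood apart from its group, and whether its label is right was not tested. Its neutrophil markers summed to 497 FPKM, above every control lung. Its levels of the receptor's targets lay on both sides of the control mean, far below those of the other lungs of its group. Over the 19378 genes tested, its Spearman rho was 0.977 to 0.979 with the control libraries. It was 0.965 to 0.975 with the VILI 0 hours libraries and 0.944 to 0.963 with the other libraries of its own group. Closeness to control was not particular to this library: VILI 0 hours replicate 2 had 0.976 to 0.979 with the control libraries. VILI 6 hours replicate 1 is part of every VILI 6 hours result below. The results on the 8 genes and the counts of several gene lists are also given without it. It was set apart after its values had been seen, so the results without it are descriptions only.

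In VILI 0 hours all 6 target genes had a higher level in every ventilated lung than in any control lung, which 12.0% of all genes tested had. Of the 6, 5 passed an unadjusted P under 0.05 upward in limma's test, beside 6.81% of all genes tested, and Nr3c1 passed it downward, beside 9.35%. None of the 8 passed a Benjamini-Hochberg adjusted p under 0.05 (0.284% of genes did), with adjusted p from 0.0757 to 0.70. This fit takes its estimate of spread from all 9 libraries. Without VILI 6 hours replicate 1, a library outside the comparison, the fold changes were the same and 7 of the 8 genes, all but Hsd11b1, passed the adjusted threshold, where 6.93% of all genes did. The exact permutation test was also run on each gene, and it gave 0.1, the smallest two-sided p that 3 against 3 lungs allow, for 7 of the 8 and 0.2 for Hsd11b1.

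**Figure D1:**
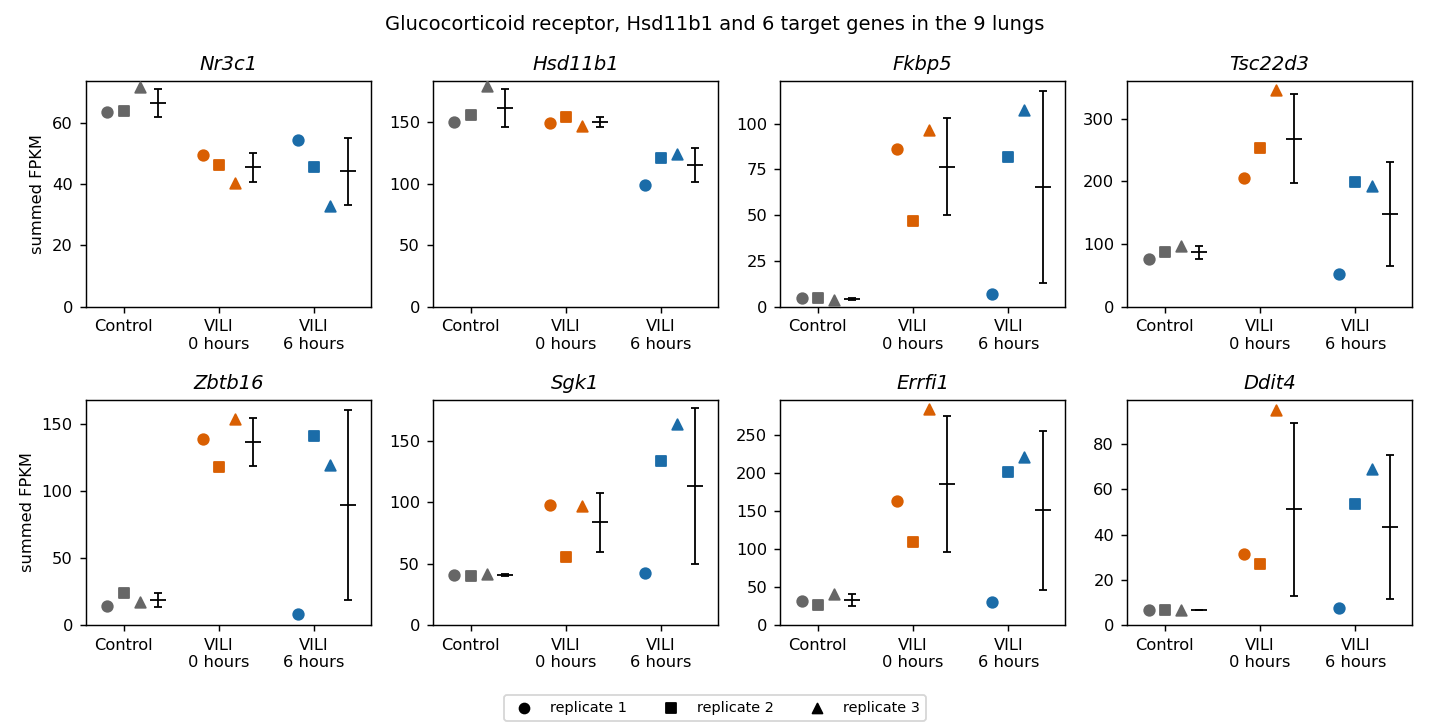
Summed FPKM of the 8 genes (vertical axes, linear and starting at 0) by group, 1 point per lung with the replicate given by its shape, and the group mean ± SD in black. The 6 targets lie above control in every VILI 0 hours lung, VILI 6 hours replicate 1 lies near or below control for them, and Nr3c1 is lower in both VILI groups.

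Fkbp5, the co-chaperone that lowers the receptor's affinity for hormone (chr17:28399094-28517527, minus strand, GRCm38), had the largest fold change of the 8 genes. Its level was 4.62, 4.43 and 3.53 FPKM in the 3 control lungs (4.19 ± 0.584, SD, n = 3), against 86.3, 46.5 and 96.5 FPKM at 0 hours (76.4 ± 26.4, SD, n = 3). The lowest ventilated lung thus lay far above the highest control lung. The means differed 18.2-fold, and the fitted difference on log2(FPKM + 0.1), the scale of all log2 values here, was 4.10 (SE 0.86, limma adjusted p = 0.0757, and 0.000231 without VILI 6 hours replicate 1).

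Zbtb16 (PLZF), a zinc finger transcription factor that is a sensitive steroid target (chr9:48654297-48836222, minus strand), stood at 14.2, 24.2 and 17.4 FPKM in the control lungs, and ventilation left it at 139.0, 118.3 and 153.8 FPKM. The groups did not overlap, and the 3 ventilated lungs lay closer to each other, as ratios, than the control lungs did. The log2 fold change was 2.90 (SE 0.87, adjusted p = 0.157, and 0.000231 without VILI 6 hours replicate 1), from means that differed 7.37-fold.

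Ddit4 (REDD1), an inhibitor of mTORC1 that stress and hypoxia also induce (chr10:59949669-59951834, minus strand), had 6.75, 6.47 and 6.53 FPKM in control, the narrowest control spread but that of Sgk1 among the 8 genes relative to its mean. In VILI 0 hours it had 31.5, 26.9 and 95.3 FPKM. All 3 lungs were higher than control, and replicate 3 was far above the other two. The log2 fold change of 2.70 (SE 0.75, adjusted p = 0.133) was 2.13 without VILI 0 hours replicate 3, and the adjusted p was 0.00741 without VILI 6 hours replicate 1.

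Errfi1 (MIG6), a feedback inhibitor of the EGF receptor (chr4:150853919-150868892, plus strand), had 31.6, 26.4 and 41.4 FPKM without ventilation and 162.8, 109.1 and 283.5 FPKM directly after it. Replicate 3 was again the highest of the ventilated lungs and replicate 2 the lowest, and no lung overlapped control. Its log2 fold change was 2.39 (SE 0.67, adjusted p = 0.135, and 0.00399 without VILI 6 hours replicate 1).

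Tsc22d3 (chrX:140539528-140600659, minus strand) was the most abundant target per length in control, at 75.8, 86.8 and 97.1 FPKM. It reached 206.3, 252.8 and 346.0 FPKM in VILI 0 hours, where every lung was higher than every control lung. The means differed 3.10-fold and the log2 fold change was 1.61 (SE 0.45, adjusted p = 0.134, and 0.00206 without VILI 6 hours replicate 1).

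Sgk1, a kinase that raises sodium uptake through the epithelial sodium channel (chr10:21882184-21999903, plus strand), had the most even control values, 40.7, 40.2 and 41.4 FPKM. In VILI 0 hours it had 98.0, 55.6 and 97.1 FPKM, with replicate 2 nearest to control. The log2 difference of 0.99 (SE 0.44) missed the unadjusted threshold narrowly (adjusted p = 0.31). It passed that threshold without VILI 0 hours replicate 2 (log2 fold change 1.26, adjusted p = 0.29), without VILI 6 hours replicate 3 (adjusted p = 0.199) and without VILI 6 hours replicate 1 (adjusted p = 0.0251).

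Promoter sequences of the targets are shown because these genes had higher levels together and the receptor's element has a known form, 2 copies of the half-site AGAACA in opposite direction with 3 bases between them. RefSeq windows of GRCm38.p6, from 250 bases before to 50 bases after an annotated start, were matched by symbol for 6 of the 8 genes (14 windows). Nr3c1 and Zbtb16 had no entry. The half-site, on either strand (AGAACA or TGTTCT), was in 4 of the 14 windows (28.6%) and in 19.0% of all 32851 windows. Sgk1 alone supplied 6 of the 14 windows and 3 of these 4, and Tsc22d3 the other, so 2 of the 6 genes held a half-site and the shares by window are weighted to Sgk1. A looser core, ACANNNTGT, which reads alike on both strands and overlaps the full palindrome, was in 2 of the 14 (14.3%), both of Sgk1, and in 6.85% of all. The exact palindrome was in 1 window of Sgk1 and in 3 of all 32851 windows (0.00913%). Among windows of 22 other glucocorticoid-induced genes (18 genes matched, 22 windows), 5 held the half-site, 4 the core and none the exact palindrome.

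In the following 3 windows, printed 5′ to 3′ on the strand of the gene, capitals mark the half-sites and, in Sgk1, the whole palindrome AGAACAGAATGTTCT with the bases between its half-sites. The first is Sgk1, chr10:21993640-21993939 on the plus strand, with the palindrome beginning 189 bases before the start and another half-site 242 bases before it. The second is Tsc22d3, chrX:140600473-140600772 on the minus strand, with 1 half-site 185 bases before the start. The third is Fkbp5, chr17:28486100-28486399 on the minus strand, the gene with the largest fold change, whose window holds neither motif.
Sgk1: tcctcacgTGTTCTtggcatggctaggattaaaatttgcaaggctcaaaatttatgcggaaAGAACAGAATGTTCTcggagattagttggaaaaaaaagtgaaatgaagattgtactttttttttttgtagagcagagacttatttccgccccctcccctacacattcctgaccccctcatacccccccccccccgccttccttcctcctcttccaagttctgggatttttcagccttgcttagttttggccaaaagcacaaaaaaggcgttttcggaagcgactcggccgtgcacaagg
Tsc22d3: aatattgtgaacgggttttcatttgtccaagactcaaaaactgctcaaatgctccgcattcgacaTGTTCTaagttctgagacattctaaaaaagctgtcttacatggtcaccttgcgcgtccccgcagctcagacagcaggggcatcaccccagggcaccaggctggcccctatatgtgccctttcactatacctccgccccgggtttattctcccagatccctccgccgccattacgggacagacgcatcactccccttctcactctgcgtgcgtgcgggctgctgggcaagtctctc
Fkbp5: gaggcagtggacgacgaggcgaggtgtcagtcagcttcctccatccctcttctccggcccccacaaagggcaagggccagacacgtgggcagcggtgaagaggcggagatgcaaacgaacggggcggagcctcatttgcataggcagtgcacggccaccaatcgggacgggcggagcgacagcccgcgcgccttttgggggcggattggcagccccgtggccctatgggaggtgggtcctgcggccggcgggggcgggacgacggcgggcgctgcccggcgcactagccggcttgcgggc
These matches describe letters in a window, and the table cannot show which start was in use, because its rows carry no transcript IDs. The window of Sgk1 that holds the palindrome is 1 of 6 for that gene. The windows of Errfi1, Ddit4 and Hsd11b1 held neither the half-site nor the core, which says only that these letters are not in these 300 bases.

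The receptor gene itself fell. Nr3c1 (chr18:39410545-39519421, minus strand, GRCm38) had 63.5, 63.9 and 71.7 FPKM in control (66.3 ± 4.60, SD, n = 3), against 49.6, 46.2 and 40.5 FPKM at 0 hours (45.4 ± 4.61, SD, n = 3). Every ventilated lung was below every control lung, a pattern that 21.6% of all genes tested had in this comparison, and the VILI 0 hours mean was 0.684 times the control mean. The log2 fold change was −0.55 (SE 0.17, adjusted p = 0.17, and 0.0426 without VILI 6 hours replicate 1). When each library was centred on its median the fold change was −0.43 and kept its call. Across all genes the median library level was itself 0.11 lower on the log2 scale in VILI 0 hours and 0.13 lower in VILI 6 hours than in control.

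Hsd11b1, the reductase that regenerates active corticosterone inside cells (chr1:193221634-193264075, minus strand, GRCm38), had the highest level per length of the 8 genes in control, 149.8, 155.4 and 179.4 FPKM. In VILI 0 hours it had 149.0, 154.4 and 147.1 FPKM, and the groups overlapped. The log2 difference was −0.10 (SE 0.11, adjusted p = 0.70), and it was 0.01 when each library was centred on its median.

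In VILI 6 hours vs control, 4 of the 6 targets passed an unadjusted P under 0.05 upward (8.17% of all genes tested did) and both Nr3c1 and Hsd11b1 passed it downward (12.2% did). None of the 8 passed the adjusted threshold (0.702% of genes did), with adjusted p from 0.0754 to 0.501. Without VILI 6 hours replicate 1, all 8 passed it, 6 upward and 2 downward, where 23.3% of all genes did. That lung was set apart after its low target values had been seen. The calls from replicates 2 and 3 alone are therefore no independent test of the targets. Leaving out VILI 6 hours replicate 2 or replicate 3 instead lowered the number with an unadjusted P under 0.05 from 6 to 3 in both cases, with Sgk1, Errfi1 and Ddit4 lost.

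VILI 6 hours replicate 1 and the other lungs of its group were far apart for every target. Fkbp5 was at 6.73 FPKM in replicate 1 and at 81.6 and 107.5 FPKM in replicates 2 and 3, and Zbtb16 at 8.48 FPKM against 141.4 and 119.2. Replicate 1 thus exceeded the control lungs for Fkbp5 and lay below all of them for Zbtb16. The corresponding levels of Ddit4 were 7.70 against 53.4 and 68.9 FPKM.
Errfi1 had 30.8 FPKM in replicate 1, inside the control range, and 200.8 and 221.5 FPKM in the other lungs. Sgk1 had 42.1 FPKM, just above control, against 133.5 and 164.1, and Tsc22d3 had 52.0 FPKM, below all controls, against 199.2 and 192.1. Relative to the control mean, the 6 targets ran from −1.09 to 0.68 on the log2 scale in replicate 1, from 1.16 to 4.66 in replicates 2 and 3, and from 0.45 to 4.50 in the VILI 0 hours lungs.

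Replicate 1 was the lowest of the 6 ventilated lungs for 6 of the 6 targets, which held for 17.3% of all genes tested, a comparison made after its values had been seen. Only Fkbp5, Sgk1 and Ddit4 had all 3 lungs above control (9.64% of all genes did). With all 3 lungs, the log2 fold change against control was 3.20 for Fkbp5 (SE 0.86, adjusted p = 0.109), 2.20 for Ddit4, 1.77 for Errfi1 and 1.25 for Sgk1. Zbtb16 (1.52) and Tsc22d3 (0.55) missed the unadjusted threshold. Without replicate 1, the values were 4.46 for Fkbp5 (adjusted p = 0.000167), 3.18 for Ddit4 (0.00268), 2.83 for Zbtb16 (0.000237), 2.69 for Errfi1 (0.00175), 1.86 for Sgk1 (0.00139) and 1.18 for Tsc22d3 (0.00535).

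**Figure D2:**
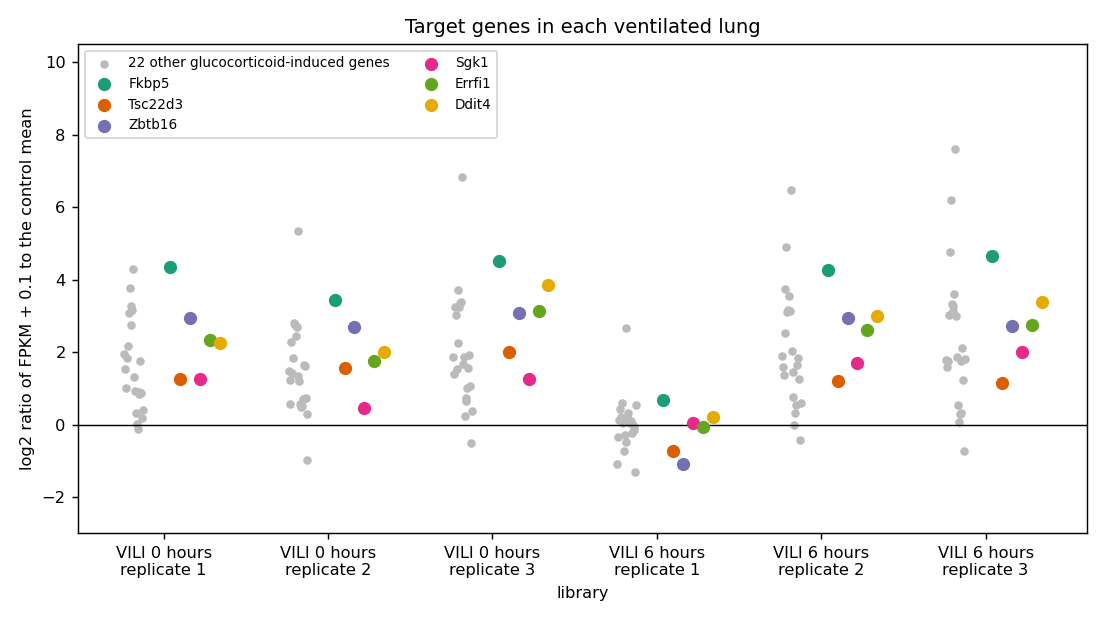
Log2 ratio of FPKM + 0.1 to the control mean (vertical axis) in each of the 6 ventilated lungs, with the 6 targets in colour and 22 other glucocorticoid-induced genes in grey. Targets sit between −1.09 and 0.68 in VILI 6 hours replicate 1 and between 0.45 and 4.66 in the other 5 lungs.

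Nr3c1 had 54.3, 45.5 and 32.7 FPKM in VILI 6 hours, all below control, as 15.0% of all genes tested were in this comparison. Replicate 1, the lung with low targets, had the highest receptor level of the 6 ventilated lungs, and replicate 3 the lowest. The log2 fold change was −0.61 and −0.78 without replicate 1 (adjusted p = 0.00892). Hsd11b1 had 98.9, 121.1 and 124.3 FPKM, below every control and every VILI 0 hours lung. Its log2 fold change against control was −0.50 (SE 0.11, adjusted p = 0.0754, and −0.39 with adjusted p = 0.0205 without replicate 1). The summed level of 8 fibroblast markers, led by Inmt, an amine methyltransferase, was 1478 to 1587 FPKM in control lungs, 1185 to 1390 at 0 hours and 848 to 1243 at 6 hours. At an unadjusted P under 0.05, 4 of the 8 fell at 6 hours and none rose, beside 12.2% and 8.17% of all genes. Without replicate 1, 4 fell and 1 rose, beside 5040 and 2486 of the 19378 genes. At 0 hours 2 fell and 1 rose, the matrix proteoglycan Dcn (log2 fold change 0.39, adjusted p = 0.0892, every lung above control), beside 9.35% and 6.81% of all genes, and counts this small in 8 genes give no result about the list. Their part in the lower levels of Nr3c1 and Hsd11b1 was not tested.

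Between the 2 times, 2 of the 8 genes passed an unadjusted P under 0.05, both lower at 6 hours (4.94% of all genes passed downward and 5.06% upward), and none passed the adjusted threshold (0% of genes in limma, with 1938 genes at an unadjusted P under 0.05). Every 6-hour lung was below every 0-hour lung for both, as in 6.28% of all genes. Hsd11b1 fell by 0.39 on the log2 scale (SE 0.11, adjusted p = 0.322), and by 0.29 without replicate 1 of VILI 6 hours (adjusted p = 0.126). Beside it, 3 of 8 fibroblast markers and 2 of 5 adipocyte markers fell between the times at an unadjusted P under 0.05 and none rose. Inmt was at −0.52 and Cidec, the highest adipocyte marker, at −0.55, both with no overlap. The fibroblast list as a whole did not fall, with 4 of 8 differences positive and a median of −0.03. Erythroid (3 of 5) and alveolar macrophage markers (3 of 6) fell as well. Without replicate 1, 3 fibroblast markers fell and 1 rose, and 3 of 5 adipocyte markers fell. In that fit 2694 of the 19378 genes fell and 1656 rose. The sum of the adipocyte markers was 17.2 to 18.2 FPKM at 0 hours and 11.8 to 12.4 FPKM at 6 hours, against 12.2 to 15.04 FPKM in control, and the part of these cells in the Hsd11b1 value was not tested. Tsc22d3 fell by 1.06 (adjusted p = 0.476). Without VILI 6 hours replicate 1 its difference was −0.42 and missed the unadjusted threshold (adjusted p = 0.241), so this call rested on that lung, and it was also lost in 10 of the 17 other alternatives. Sgk1, in contrast, had a difference of 0.27 with all lungs and 0.87 without replicate 1 (adjusted p = 0.0822, where 1.84% of all genes passed the adjusted threshold), with both remaining 6-hour lungs above the 3 lungs of VILI 0 hours.

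**Figure D3:**
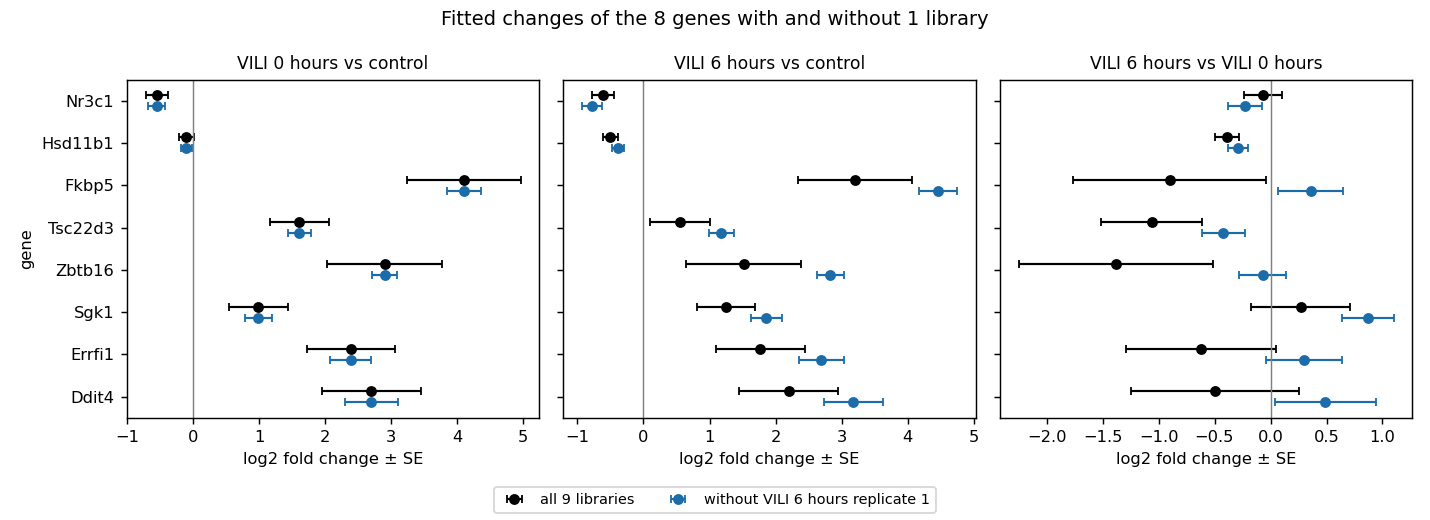
Fitted log2 fold changes ± SE (horizontal axes) of the 8 genes in the 3 comparisons, in black from all 9 libraries and in blue without VILI 6 hours replicate 1. The bars are narrower in blue for the targets, and against VILI 0 hours the values of Fkbp5, Errfi1 and Ddit4 change sign, from −0.90, −0.62 and −0.50 to 0.36, 0.30 and 0.49.

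The share of each transcript row in the sums varied between lungs, most of all for Fkbp5 and Nr3c1. Fkbp5 has 4 rows, and row 3 held most of the gene in 7 lungs. Row 4 held it in control replicate 1 (4.56 FPKM against 0.00743 FPKM on row 3) and in VILI 6 hours replicate 2 (50.6 against 26.3 FPKM). Row 3 therefore held between 0.2% and 98.9% of the gene's FPKM.
Nr3c1 has 8 rows, 1 of them listed at 0 in all libraries. Row 2 had 42.6, 46.7 and 56.9 FPKM in control lungs, then 39.0, 34.3 and 26.7 FPKM at 0 hours and 41.7, 30.2 and 1.33 FPKM at 6 hours. In the lung at 1.33 FPKM (replicate 3), row 4 held 20.2 FPKM, the highest of that row. On row 2 alone the log2 difference was −0.55 in VILI 0 hours (adjusted p = 0.855) and −1.99 in VILI 6 hours (adjusted p = 0.356), so the call on the receptor depends on summing its rows. At 0 hours the size of the fall did not: row 2 had the fold change of the sum, with every lung below control. In a fit of single rows the SE of row 2 was 1.09, against 0.17 for the sum. The spread is shared by all groups, so it includes the lung at 1.33 FPKM. The main row held 88.8% to 94.2% of Hsd11b1, 90.0% to 95.3% of Tsc22d3, 75.7% to 82.3% of Sgk1, 78.5% to 100% of Errfi1 and 56.5% to 80.8% of Zbtb16, and Ddit4 has 1 row.

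**Figure D4:**
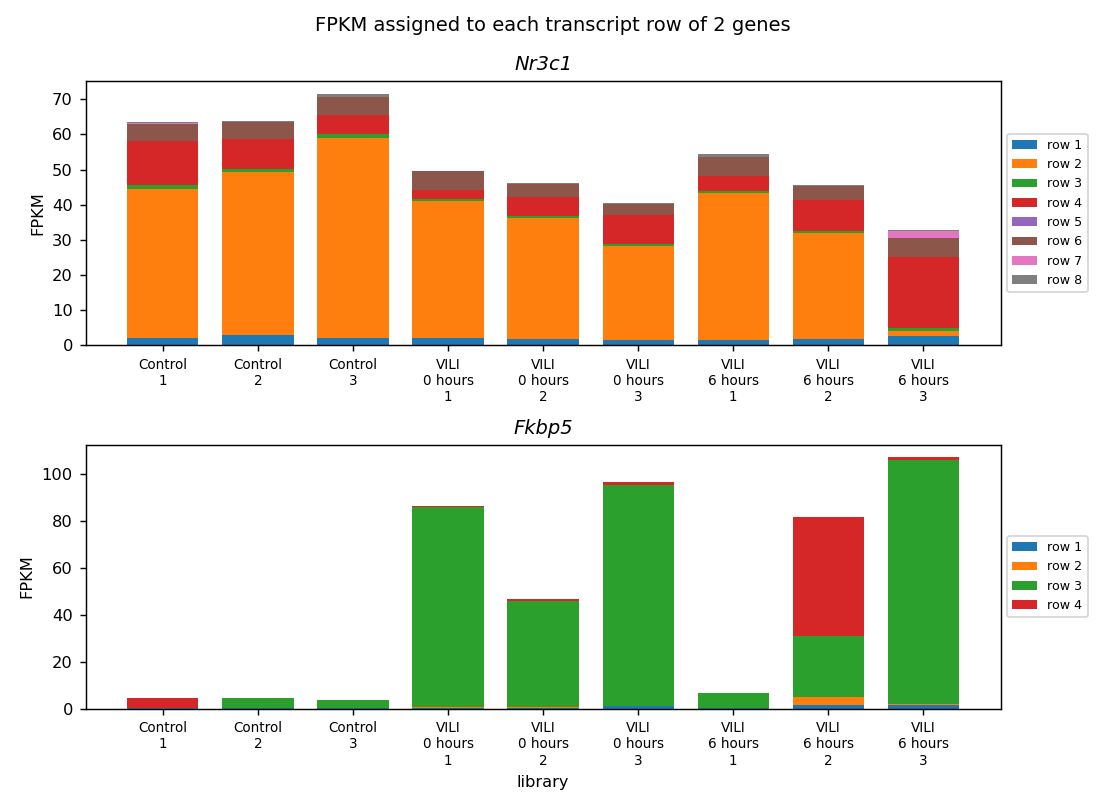
FPKM of each transcript row (stacked bars from 0) of Nr3c1 and Fkbp5 in the 9 libraries. Row 4 in place of row 3 carries Fkbp5 in control replicate 1 and most of it in VILI 6 hours replicate 2, and row 2 of Nr3c1 is nearly absent in VILI 6 hours replicate 3.

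Of 22 other genes known to be induced by glucocorticoids, 17 rose in VILI 0 hours at an unadjusted P under 0.05 and none fell, beside 6.81% and 9.35% of all genes, with a median log2 difference of 1.52 beside −0.07 over all genes tested. The number past that threshold was 11 without control replicate 2 and 12 to 19 without another library. None of the 22 passed the adjusted threshold with all libraries, and 16 did without VILI 6 hours replicate 1, where 6.93% of all genes did. The largest rises with no overlap were those of Il1r2, the decoy receptor for interleukin 1, Pdk4, which turns off pyruvate dehydrogenase, Angptl4, an inhibitor of lipoprotein lipase, and Fam107a. Il1r2 had 0.261, 0.451 and 0.465 FPKM in control lungs but 9.43, 19.5 and 55.2 FPKM at 0 hours (log2 fold change 5.50, SE 1.10, adjusted p = 0.0725). Every ventilated lung was above control, and neutrophils, whose markers rose in the same lungs, also carry this gene, a part that was not tested. Pdk4 went from 2.17 ± 0.283 to 25.2 ± 8.34 FPKM (SD, n = 3, log2 fold change 3.42), Angptl4 from 4.98 ± 1.45 to 42.3 ± 7.95 FPKM (3.09) and Fam107a from 2.95 ± 0.754 to 25.6 ± 5.99 FPKM (3.07). Per1, which is both a clock gene and a direct receptor target, had 15.7, 13.7 and 23.2 FPKM in control lungs but 65.7, 47.6 and 62.5 FPKM at 0 hours.

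In VILI 6 hours, 14 of the 22 rose and 1 (Gpx3, a plasma glutathione peroxidase, log2 fold change −0.82) fell, beside 8.17% and 12.2% of all genes, with a median of 1.17 beside −0.09 over all genes. The number past the threshold in either direction, 15, was 8 without VILI 6 hours replicate 2 or replicate 3. Without replicate 1, 19 rose and none fell, 18 of them past the adjusted threshold, and the median was 1.76. Of the 19378 genes in that fit, 2486 rose, 1579 of them past the adjusted threshold, and 5040 fell, with a median of −0.14. VILI 6 hours replicate 1 was the lowest of the 6 ventilated lungs for 19 of the 22 genes, beside 17.3% of all genes tested. The list's median ratio to control there was 0.05 on the log2 scale, beside 1.37 to 1.84 in the other 5 lungs. The metallothioneins, which bind zinc and also answer to metals, had the widest range in FPKM, though not as a ratio, where Il1r2 ranged more widely. Mt2 had 15.4 ± 3.20 FPKM in control lungs (SD, n = 3), then 129.8, 55.2 and 72.6 FPKM at 0 hours and 22.95, 455.1 and 1126 FPKM at 6 hours. Replicates 2 and 3 thus lay above all other lungs and replicate 1 below all lungs of VILI 0 hours. Mt1 followed the same order, at 39.3 FPKM in replicate 1 and 463.4 and 929.6 FPKM in the others. Without replicate 1, Mt2 rose between the 2 times by 3.15 (adjusted p = 0.0157) and Mt1 by 2.56 (adjusted p = 0.0103). Cebpd, a transcription factor of the acute phase, rose from 11.2 ± 3.09 to 56.0 ± 38.0 FPKM (SD, n = 3, adjusted p = 0.124). Mertk, a receptor for the uptake of dead cells, was the gene of the list that fell between the times with no overlap, from 32.0, 28.9 and 36.1 to 15.2, 25.7 and 22.2 FPKM (log2 fold change −0.65, adjusted p = 0.307). Of 6 alveolar macrophage markers, 3 also fell between the times at an unadjusted P under 0.05 with no overlap and none rose, beside 4.94% of all genes that passed downward and 6.28% with every 6-hour lung below, while their sum, led by Chil3, was 436 to 503 FPKM at 0 hours and 298 to 692 FPKM at 6 hours. Macrophages carry Mertk, and their part in its value was not tested.

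For the receptor's chaperones and coregulators (21 genes), 2 rose in VILI 0 hours, a share near the 6.81% of all genes that passed upward. These were the phosphatase Ppp5c (log2 fold change 0.25, adjusted p = 0.271) and the cochaperone Dnajb1 (0.23, adjusted p = 0.308). None passed the unadjusted threshold of limma in VILI 6 hours vs control, beside 8.17% of all genes upward and 12.2% downward. The medians were −0.06 and 0.04. Without replicate 1, 1 was higher and 4 were lower at 6 hours, beside 2486 and 5040 of the 19378 genes, so this is no result about the list. VILI 6 hours replicate 1 had the highest level of all 9 lungs for 13 of these 21 genes (61.9%), beside 19.4% of all genes tested. Chosen after their values were seen, Hsp90ab1, the constitutive Hsp90, had 487.3 FPKM there and 215.6 to 301.2 FPKM in the other lungs. Fkbp4, the co-chaperone that opposes Fkbp5 on the receptor, had 70.8 FPKM there and 21.9 to 45.1 FPKM elsewhere, and Stip1, which links Hsp70 to Hsp90, had 41.5 FPKM there and 16.4 to 23.3 FPKM elsewhere. The members called at 0 hours were not among those highest in this lung: it had 11.6 FPKM of Dnajb1 and 21.2 FPKM of Ppp5c, within the range of the other ventilated lungs.

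Among genes of ligand supply, 7 of 10 reached a mean of at least 0.1 FPKM. H6pd, which supplies the cofactor for Hsd11b1, rose from 56.6, 54.2 and 52.5 FPKM to 73.0, 79.3 and 74.0 FPKM at 0 hours (log2 fold change 0.47, adjusted p = 0.29) and to between 57.4 and 107.2 FPKM at 6 hours (0.64, adjusted p = 0.14). No ventilated lung fell into the control range, although replicate 1 of VILI 6 hours was close to it. Of the steroid-exporting pumps, Abcb1b rose at both times (0.58 and 0.80) and Abcb1a fell in VILI 6 hours, to 9.08, 12.2 and 10.7 FPKM from 14.97, 17.2 and 16.4 (−0.61, adjusted p = 0.109). Hsd11b2, which inactivates corticosterone, stayed between 0.255 and 1.43 FPKM in all lungs, far below Hsd11b1. The mineralocorticoid receptor Nr3c2, the other receptor for corticosterone, had 3.48 to 7.77 FPKM.

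Of 17 inflammatory genes that glucocorticoids are known to lower, 2 rose and 1 fell in VILI 0 hours (median −0.10; the fall was that of Mmp13, a collagenase under 1 FPKM in all lungs, named after its value was seen), which is close to the 6.81% and 9.35% of all genes and so no result about the list, whereas 9 rose and none fell in VILI 6 hours (median 1.84). Without VILI 6 hours replicate 1, 11 rose at 6 hours, 8 of them past the adjusted threshold (median 2.59). Of the 19378 genes in that fit, 2486 rose, 1579 of them past the adjusted threshold. The number past the unadjusted threshold was 4 without control replicate 1, control replicate 3 or VILI 6 hours replicate 3 and 5 without control replicate 2, beside 8.17% of all genes upward. The list medians against control were 0.39, 0.83 and 3.99 in the 3 lungs of VILI 6 hours, so replicate 3 was far above the others. The rises at 0 hours were those of Cxcl2, a neutrophil chemokine (log2 fold change 3.31, adjusted p = 0.289), and Il1b (3.14, adjusted p = 0.0757). Ccl2, the monocyte chemokine, had 0.302, 0.911 and 0.221 FPKM at 0 hours and 2.35, 5.27 and 13.6 FPKM at 6 hours, with no overlap (log2 fold change 3.48 between the times, adjusted p = 0.144). Il6 reached 0.306, 1.58 and 19.3 FPKM at 6 hours and Cxcl2 2.30, 2.88 and 150.1 FPKM, so replicate 3 led both. Icam1, an endothelial adhesion molecule, rose between the times by 0.88 (adjusted p = 0.286), and so did Csf2 by 1.25 (0.464) and Ccl7 by 3.70 (0.252). In VILI 6 hours replicate 1, 13 of the 17 genes were above the control mean, beside 10084 of the 19378 genes tested. Il1b was among them, at 26.4 FPKM beside 3.27 to 4.95 FPKM in control.

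**Figure D5:**
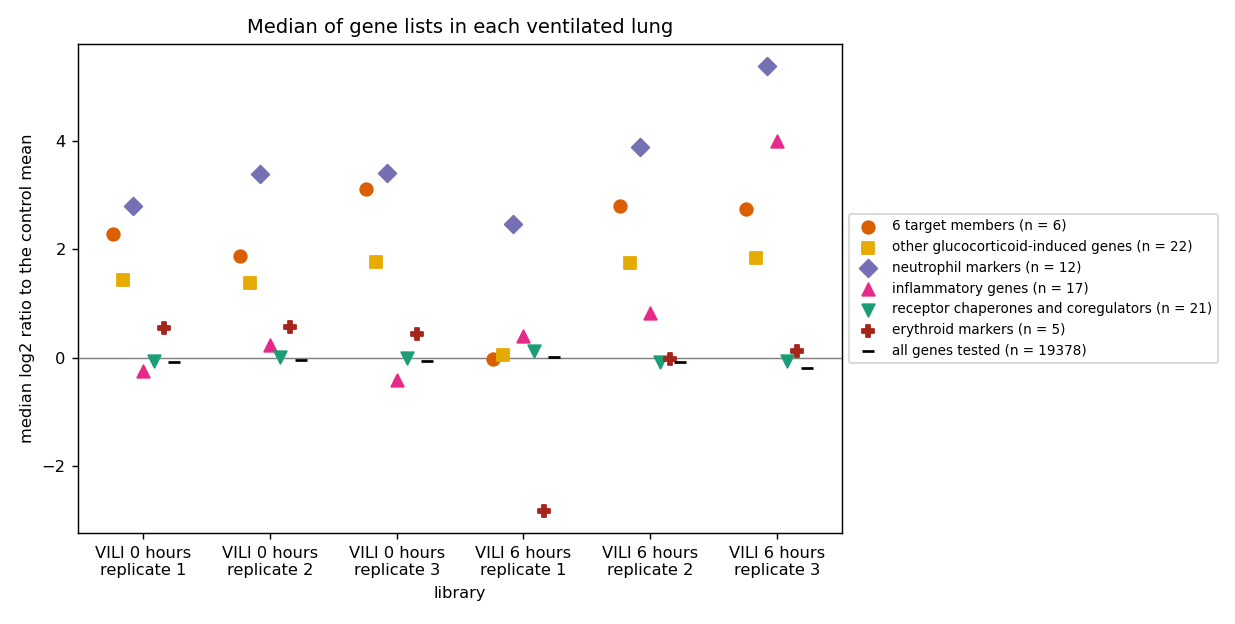
Median log2 ratio to the control mean (vertical axis) of 6 gene lists and of all genes tested in each ventilated lung. In VILI 6 hours replicate 1 the medians of the targets (−0.02) and the other glucocorticoid-induced genes (0.05) are near the control mean. Single targets lie on both sides of it, from −1.09 to 0.68. The neutrophil markers stand at 2.46 and the erythroid markers at −2.83.

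The lung with low targets differed in other ways too. Its neutrophil markers summed to 497 FPKM, below the other ventilated lungs and above all controls. Its erythroid markers, led by the globin gene Hbb-bs, summed to 489 FPKM, beside 3225 to 5419 FPKM in the other 8 lungs, its T and NK cell markers to 21.6 FPKM beside 37.7 to 99.2, and its club and ciliated cell markers to 41550 FPKM beside 23540 to 32730. No marker of these lists was at 0 in all libraries, and the part of cell content in the target values was not tested. Of 263 genes that had every VILI 0 hours lung above control, a log2 difference of at least 1 and a mean of at least 1 FPKM, 31.6% were at least 1 above the control mean on the log2 scale in replicate 1, beside 82.5% and 84.4% in replicates 2 and 3. Of the 8 genes, 5 were in that set (all targets but Sgk1), and none of these 5 was at least 1 above the control mean in replicate 1.

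Clock genes divided the lungs in another way. Dbp, an output gene with a strong daily rhythm, had 34.3, 18.8 and 28.9 FPKM in control lungs, then 3.80, 41.0 and 4.57 FPKM at 0 hours and 3.98, 24.3 and 10.2 FPKM at 6 hours. It was below every control lung in VILI 0 hours replicates 1 and 3 and VILI 6 hours replicates 1 and 3, and the groups overlapped (log2 difference −1.55 in VILI 0 hours, adjusted p = 0.424). In VILI 0 hours 1 of 16 clock genes rose (Per1) and 3 fell, among them Per3 (−1.82, adjusted p = 0.133) and Per2 (−1.13, 0.245) with no overlap and Hlf (−1.02) with overlap, beside 6.81% and 9.35% of all genes. Without VILI 6 hours replicate 1, 4 rose at 0 hours (Per1, Arntl, Cry2 and Nr1d1, with Per1 alone past the adjusted threshold) and 3 fell, beside 1741 and 2752 of the 19378 genes. In VILI 6 hours Per3 (−1.39) and Hlf (−1.27) fell and none rose, near the 12.2% of all genes that fell. That count rested on replicate 1: without it 3 rose, Per1 by 1.83 (adjusted p = 0.0013), Bhlhe40 by 1.24 (0.0466) and Cry2 by 0.72 (0.00469), only Hlf fell (−1.16, 0.0499), and Per3 did not pass (−1.14, 0.163). In that fit 2486 of the 19378 genes rose and 5040 fell, so these small counts give no result about the list. Within VILI 0 hours, replicate 2, the lung with high Dbp, had lower levels of some targets than the lungs with low Dbp: Fkbp5 had 46.5 FPKM against 86.3 and 96.5, Sgk1 55.6 FPKM against 98.0 and 97.1, and Zbtb16 118.3 FPKM against 139.0 and 153.8. All targets but Tsc22d3 had their lowest value of VILI 0 hours in replicate 2. VILI 6 hours replicate 1 had both low Dbp and low targets, whereas replicate 3, also with low Dbp, had 107.5 FPKM of Fkbp5 and 164.1 FPKM of Sgk1, the highest levels of all lungs. Other clock genes did not all group these 2 lungs. Per3 (7.46 and 9.48 FPKM) and Hlf (4.17 and 4.16 FPKM) were below control in both. Arntl had 13.4 FPKM in replicate 1 and 4.22 FPKM in replicate 3, and Npas2 had 11.2 and 2.66 FPKM. Low Dbp alone thus does not show a shared clock state. The part of time of day was not tested.

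For each of the 8 genes, the gene with the most similar pattern was sought among 14108 genes with a mean of at least 1 FPKM, by Pearson r of log2(FPKM + 0.1) over the 9 libraries. These were Klhl2 for Fkbp5 (r = 0.997), Pxdc1 for Ddit4 (0.991), Angptl4 for Zbtb16 (0.99), F3 (tissue factor) for Sgk1 (0.989), Vsnl1 for Nr3c1 (0.989), S1pr1 for Errfi1 (0.986), Epb41 for Tsc22d3 (0.981) and Mosmo for Hsd11b1 (0.952). The 9 points share the contrast of ventilated and control lungs and the low values of VILI 6 hours replicate 1, and the highest of so many coefficients is high by choice, so these are descriptions only.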

How the data were processed

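Lung RNA of 9 mice was analysed, 3 per group (control, VILI 0 hours, VILI 6 hours), with groups taken from the sample records. The deposited values are FPKM per transcript, which the authors made with TopHat 2.0.9, Bowtie2 2.0.6 and Cuffdiff 2.1.1 on GRCm38 after assembly of transcripts. The library kit in the records differs from that in the methods of the study, so strand-specific counting is unsettled. FPKM divides by length and by library total, so a few abundant genes can shift all others, and reads shared by the transcripts of a gene are divided among its rows by a model.

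FPKM were summed over the rows of each gene, after Ensembl IDs without version were named by GENCODE M21 (23580 of 23713 matched; 60108 rows). Levels were compared in limma 3.58.1 (R 4.3.3), by lmFit and then eBayes with the trend option, on the log2 of FPKM + 0.1, for 19378 genes with a mean FPKM of at least 0.1, in 1 fit of 9 libraries with group as the only factor. An unadjusted P under 0.05 was the threshold of the study, and Benjamini-Hochberg adjustment covered all genes tested. A fold change on this scale understates changes of genes near 0.1 FPKM. The fit was tested on simulated data. Other steps used Python 3.11.15, pandas 2.3.3, numpy 2.4.6 and matplotlib 3.10.9.

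The 8 genes, 5 pathway lists and 12 marker lists were chosen with earlier results of these data known. Named genes were the 8 members; up to 4 per pathway list and comparison with the largest absolute log2 fold change among those with an unadjusted P under 0.05, no overlap and a mean FPKM of at least 1; Dbp and Per1; the highest marker of a list; and the gene most like each member. Genes named outside this rule are said to be so or are named for a count. Promoter windows are from RefSeq (GRCm38.p6). Alternatives were pseudocounts of 0.01 and 1, the replicate block, centring each library on its median, fitting the 6 libraries of a comparison alone, a mean of at least 1 FPKM, no filter, no trend, the highest transcript row and each library left out. Replicate numbers were not used as pairs, since deviations of same-numbered libraries from their group means correlated at −0.22 to 0.02 and the records name no shared litter or day.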

Additional observations from a re-analysis of the deposited data

Results flagged for a closer look

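The fitted difference between 0 and 6 hours passed an unadjusted P under 0.05 for 2 of the 8 genes, beside 4.94% of all genes downward and 5.06% upward, and none of the 19378 genes passed the adjusted threshold of limma. Hsd11b1 had a log2 difference of −0.39 and Tsc22d3 of −1.06, and Tsc22d3 had −0.42 without VILI 6 hours replicate 1 and missed the unadjusted threshold. Hsd11b1 stayed past the unadjusted threshold in all 18 alternatives, and Tsc22d3 did in 7 of 18. Between the times, 3 of 8 fibroblast markers and 2 of 5 adipocyte markers also fell at an unadjusted P under 0.05. The fibroblast list as a whole did not fall, with 4 of 8 differences positive and a median of −0.03. Erythroid (3 of 5) and alveolar macrophage markers (3 of 6) fell as well. The part of these cells in the Hsd11b1 value was not tested. No test of single outlying lungs was run, so VILI 6 hours replicate 1 was not tested as one.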

How the results depend on the processing

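The number of the 8 genes with an unadjusted P under 0.05 was 6 in VILI 0 hours vs control (5 to 7 over the alternatives), and leaving out 1 library gave 6 to 7. In VILI 6 hours vs control it was 6, and leaving out 1 library gave 3 (without VILI 6 hours replicate 2 or 3) to 8 (without replicate 1). Between the times it was 2, and leaving out 1 library gave 1 to 3. It was 1 with no filter, with median-centred libraries, with only the 6 libraries compared, without a trend and with the transcript row of the highest mean. The replicate block left the counts at 6, 6 and 2.

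Of 432 fold changes recomputed, 394 kept their direction and their side of the threshold, 21 lost it, 8 passed it and 9 changed direction. Hsd11b1 in VILI 0 hours went from −0.10 to 0.01 with median-centred libraries. The other 8 were differences between the times that passed no threshold. Nr3c1 went to 0.00 without VILI 0 hours replicate 1 and to 0.13 without VILI 6 hours replicate 3, and Sgk1 to 0.00 without VILI 0 hours replicate 2 and −0.11 without VILI 6 hours replicate 3. Ddit4 went to 0.07 without VILI 0 hours replicate 3. Without VILI 6 hours replicate 1, Fkbp5 went to 0.36, Errfi1 to 0.30 and Ddit4 to 0.49. Leaving out 1 library moved the differences between the times of Nr3c1 between −0.23 and 0.13, of Fkbp5 between −1.63 and 0.36, of Sgk1 between −0.11 and 0.87, of Errfi1 between −1.12 and 0.30 and of Ddit4 between −1.08 and 0.49. The cause was not tested.

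Adjusted calls over all genes in VILI 0 hours vs control depended on the spread taken from the third group. They numbered 55 with all 9 libraries, 1597 with only the 6 libraries compared, 1343 without VILI 6 hours replicate 1 and 1 to 246 when another library was left out. In VILI 6 hours vs control, 136 became 4512 without replicate 1, and leaving out another library gave 0 (without control replicate 2) to 129. Depth per library was not used here, and 3 lungs per group limit each result.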
